A study of Homo sapiens with 27 samples.

Results

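HuH-7 cells with guides against FGFR3 and FGFR4 were compared with HuH-7 cells with a guide against FGFR4 alone in 6 RNA-seq libraries. HuH-7 is an established human hepatocellular carcinoma cell line. The 3 sgFGFR3/4 libraries come from cells labelled as an FGFR3/4 knockout and the 3 sgFGFR4 libraries from cells labelled as an FGFR4 knockout. By these labels both groups carry a guide against FGFR4, and sgFGFR3/4 also carries one against FGFR3. The same line also gave 3 libraries with a non-targeting guide (sgNTC, labelled wild type) and 3 with a guide against KLB (sgKLB), and JHH-7, another human liver cancer line, gave 3 sgFGFR4 and 3 sgFGFR3/4 libraries that are set beside them. JHH-7 also gave 3 libraries each of sgNTC, sgKLB and sgFGFR1/3/4, the last with guides against FGFR1, FGFR3 and FGFR4. These enter the gene filter and the estimate of the spread in the fits that include JHH-7. All cells were cultured in medium with fetal bovine serum, and the replicates are labelled biological. The labels do not say whether a group is 1 clone or a pool of edited cells, and name no guide sequence. Nor do they say whether the sgFGFR3/4 cells were made from the sgFGFR4 cells. An effect of the FGFR3 guide cannot be told apart from other differences between these cell populations. The p-values therefore measure the spread between these libraries. The genes described are those with an FPKM (fragments per kilobase of transcript, scaled to the library's total) of at least 1 in at least 3 HuH-7 libraries, 14716 of the 58735 genes in the table.

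FGFR3 and FGFR4 are receptor tyrosine kinases. When a fibroblast growth factor binds them they pass the signal through the adaptor FRS2 to RAS, RAF, MEK and ERK, and ERK activity induces its own inhibitors, among them the Sprouty and DUSP genes, and ETS transcription factors such as ETV4. In hepatocytes the hormone FGF19 acts through FGFR4 together with its co-receptor beta-klotho, the product of KLB, and represses bile acid synthesis. Mature hepatocytes are known for secreting most plasma proteins, clotting factors and apolipoproteins, and for oxidising fatty acids and metabolising steroids and drugs.

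The 6 libraries held an estimated 15.6 M to 21.4 M fragments, and replicates correlated at 0.973 to 0.982 (Pearson, across genes) against 0.972 to 0.980 between the groups. All 6 defining hepatocyte markers (ALB, TTR, SERPINA1, APOA1, APOB and HNF4A) were at 1 FPKM or more in every library, and their summed level was 4019 to 4314 FPKM in sgFGFR4 against 4733 to 4865 FPKM with both guides. ALB, at 3121 FPKM or more in each library, made up most of the sum. SERPINA1, APOA1 and HNF4A were higher in every sgFGFR3/4 library and TTR lower, while the ranges of ALB and APOB overlapped. Of 4 endothelial markers none reached 1 FPKM in all 6 libraries and KDR was at 0 in each. Of 4 immune markers CD14 and CD68 did, with summed levels over the 4 markers of 155 to 166 FPKM in sgFGFR4 against 132 to 151 FPKM, while PTPRC stayed at or below 0.18 FPKM. Of 4 fibroblast markers COL1A1 and COL1A2 did, with sums of 21.3 to 27.1 FPKM against 29.7 to 32.4 FPKM. Of 4 cholangiocyte markers KRT19 and SOX9 did, with sums of 700.6 to 771 FPKM against 676 to 782 FPKM. KRT19 made up most of that sum, and SOX9 alone was at 53.7 to 55.9 FPKM against 43.2 to 46.1 FPKM. The part of these differences in the results below was not tested. Differences are given as log2 changes of FPKM + 1, sgFGFR3/4 minus sgFGFR4, with the standard error of the fit. On this scale the changes of genes with low FPKM are understated. A gene is called where its two-sided p from limma, adjusted over all genes tested, is under 0.05.

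The target of the FGFR3 guide was lower. FGFR3 (ENSG00000068078; GRCh38 chromosome 4, 1793293 to 1808872) was at 117, 109 and 111 FPKM in the sgFGFR4 libraries and at 47.4, 46.6 and 46.1 FPKM in the sgFGFR3/4 libraries. The groups lay far apart, while the 3 sgNTC libraries were at 114, 119 and 119 FPKM. The fall was 1.25 ± 0.057 on the log2 scale (95% interval of the change -1.37 to -1.12; adjusted p 9.18e-07), and the transcript remained detected in every library. The largest adjusted p with any of the 6 libraries left out was 2.29e-05.

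FGFR4 (ENSG00000160867; chromosome 5, 177086886 to 177098144) was at 88.2, 85.2 and 88.7 FPKM in sgFGFR4 and at 87.1, 95.4 and 88.4 FPKM in sgFGFR3/4. These ranges overlapped, and the change of 0.05 (95% interval -0.11 to 0.20; adjusted p 0.85) did not pass. Both groups were below every sgNTC library, at 230.3 to 255 FPKM. FGFR1 was at 4.65 to 5.80 FPKM and at 4.33 to 6.54 FPKM (change 0.07, adjusted p 0.92). FGFR2 lay below 1 FPKM in all 6 libraries, so it was not tested.

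KLB (ENSG00000134962), the co-receptor, was at 17.9, 18.8 and 19.3 FPKM in sgFGFR4 and at 22.8, 20.9 and 22.9 FPKM in sgFGFR3/4. The groups did not overlap, but the change of 0.24 ± 0.098 was not called (adjusted p 0.316). FGF19 (ENSG00000162344), the ligand, was at 8.51, 8.01 and 9.03 FPKM and at 13.8, 13.1 and 10.7 FPKM. Every sgFGFR3/4 library was above every sgFGFR4 library, and the rise of 0.50 ± 0.107 was called (adjusted p 0.0394). That call held in the fit without sgFGFR3/4 replicate 3 (adjusted p 0.0187) and was lost without any of the other 5 libraries (up to 0.155).

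**Figure D1:**
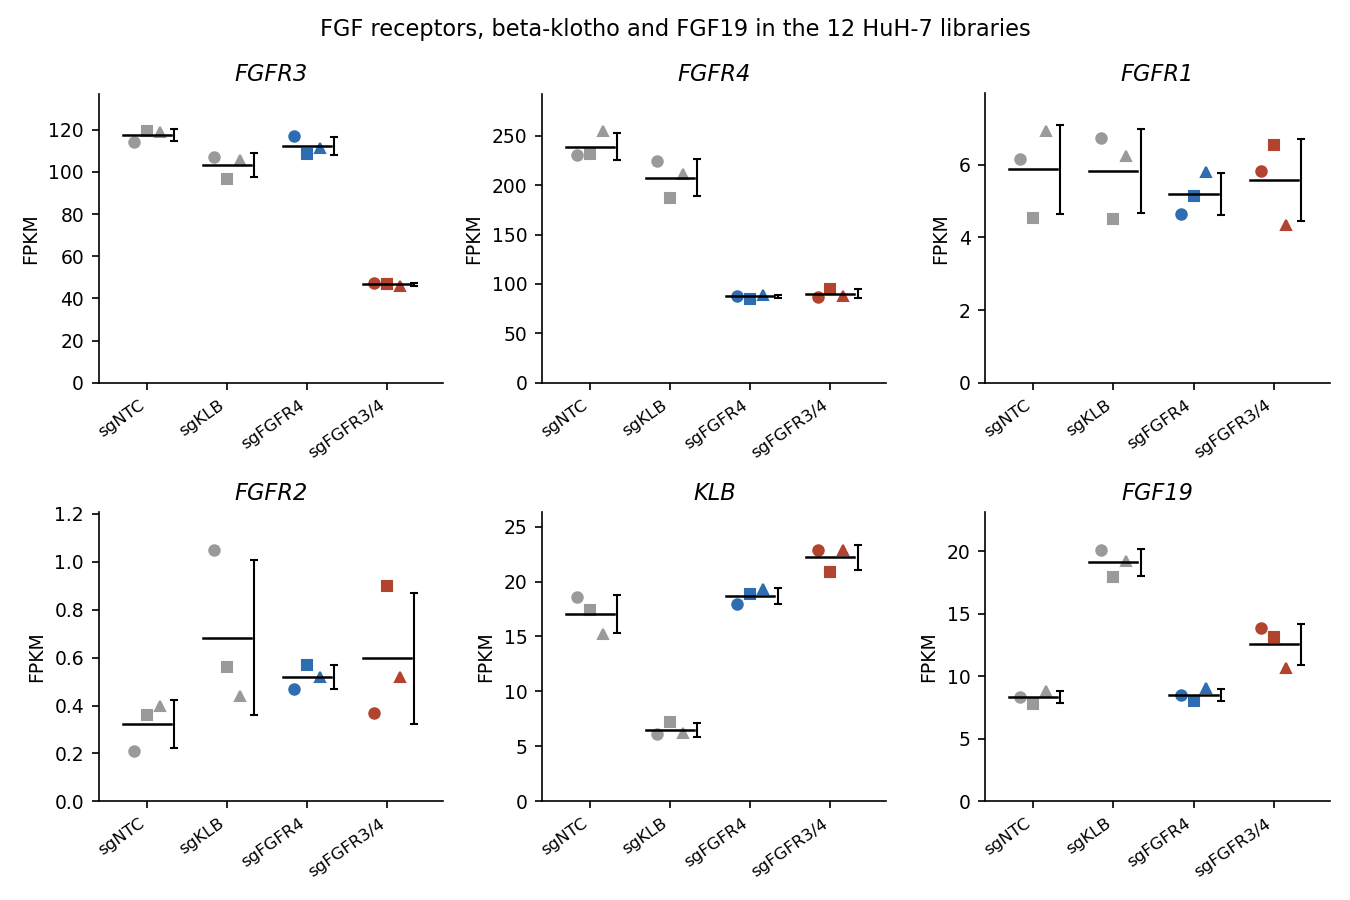
FPKM of 4 receptors, KLB and FGF19 (vertical axes, each from 0) in the 12 HuH-7 libraries by guide; circles, squares and triangles are replicates 1, 2 and 3, the line is the mean and the bar its SD. FGFR3 lies at 46.1 to 47.4 FPKM in sgFGFR3/4 and at 96.8 FPKM or more in the other 9 libraries, while FGFR4 lies at 85.2 to 95.4 FPKM in both groups that carry its guide.

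Downstream of the receptors, none of the 19 FGF receptor adaptors and proximal signalling genes was called, where 1.62% of all genes tested were. Their median change was -0.01, and that of all genes tested was -0.01. FRS2, the docking adaptor, had mean levels of 25.4 and 28.1 FPKM (change 0.14, 95% interval -0.17 to 0.45). None of the 15 other receptor tyrosine kinases measured was called either (median 0.02). In lists this small, having no call lies near that share.

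Beyond FGFR3 the groups differed in many genes by moderate amounts. Of the 14716 genes, 238 were called (1.62%): 150 were higher in sgFGFR3/4 (1.02%) and 88 were lower (0.598%), and 1987 had an unadjusted p under 0.05. The shares of 1.02% and 0.598% are the background for the counts of called list members below. Only 15 of the higher and 8 of the lower genes changed by at least 1, and the median size of a called change was 0.58 among the higher and 0.50 among the lower genes. In all 238 called genes the 3 libraries of one group lay entirely above those of the other, against 10.0% of all genes not overlapping with sgFGFR3/4 above and 9.98% with it below. The calls came from these same libraries, so the separation follows largely from the call and is no further support. The largest rises and falls named below were also picked for it. The count was between 100 and 148 with any 1 library left out and 68 when only these 2 groups were fitted, and each of the 238 genes kept its sign in every alternative setting that tested it. As the groups of these genes did not overlap, leaving out a library could not reverse a sign. The kept signs are therefore no further support for the calls. A gene named below as called kept that call with any 1 of the 6 libraries left out unless its paragraph says otherwise; 53 of the higher and 29 of the lower genes did so.

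**Figure D2:**
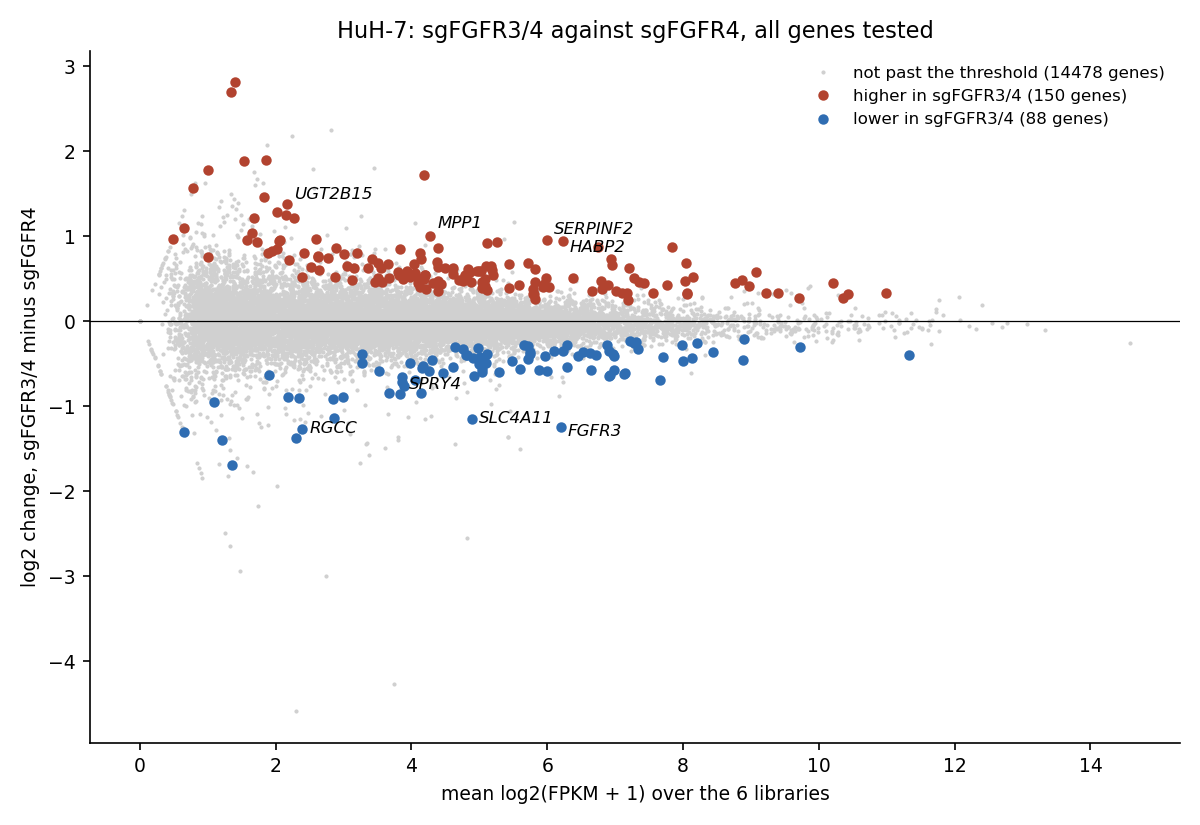
Log2 change of each gene, sgFGFR3/4 minus sgFGFR4 (vertical axis), against its mean log2(FPKM + 1) over the 6 libraries (horizontal axis). Coloured points are the 150 called higher and 88 called lower genes, and most of them lie within 1 of the zero line.

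Among the largest rises were genes of liver metabolism and of secreted liver proteins. UGT2B15, which attaches glucuronic acid to steroids and drugs, was at 1.46, 1.70 and 2.24 FPKM in sgFGFR4 and at 5.70, 6.58 and 6.53 FPKM in sgFGFR3/4, a rise of 1.38 ± 0.139 (adjusted p 0.000554). The UGT2B genes are close copies of one another, so the division of fragments between them is uncertain. AFM, the vitamin E carrier afamin, was at 1.44, 1.72 and 1.62 FPKM and at 4.87, 5.66 and 5.35 FPKM, a rise of 1.28 ± 0.169 (adjusted p 0.00291). AKR1D1, the steroid 5-beta-reductase of bile acid synthesis, was at 2.78, 2.12 and 1.67 FPKM and at 6.77, 5.76 and 6.40 FPKM, a rise of 1.21 ± 0.181 (adjusted p 0.00567). All 3 were at 2.78 FPKM or less in every sgFGFR4 library and at 4.87 FPKM or more in every sgFGFR3/4 library. The ratios of the mean FPKM were 3.48 for UGT2B15, 3.32 for AFM and 2.88 for AKR1D1.

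Among genes of higher abundance, HABP2, a plasma serine protease that binds hyaluronan, was at 56.4, 50.3 and 53.1 FPKM in sgFGFR4 and at 106, 111 and 92.4 FPKM in sgFGFR3/4 (rise 0.94 ± 0.072, adjusted p 8.48e-05). SERPINF2, the plasmin inhibitor, was at 47.3, 44.7 and 42.9 FPKM and at 84.7, 96.0 and 83.0 FPKM (rise 0.95 ± 0.079, adjusted p 0.000172). GJB1, the gap junction protein connexin 32 of hepatocytes, was at 30.0, 23.6 and 26.9 FPKM and at 49.7, 55.2 and 50.4 FPKM (rise 0.93 ± 0.110, adjusted p 0.00154). MPP1, a membrane scaffold protein, was at 14.1, 12.7 and 11.5 FPKM and at 25.8, 26.3 and 27.04 FPKM (rise 1.00 ± 0.107, adjusted p 0.000771). In these 4 genes each sgFGFR3/4 library exceeded each sgFGFR4 library, and the ratios of the means ran from 1.93 to 2.07. FAM151A had the same pattern at a lower level, at 1.95 to 2.06 FPKM and at 4.60 to 5.08 FPKM (rise 0.95, adjusted p 0.00265).

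For 3 further rises the call depended on which libraries were in the fit. BDH1, the ketone body enzyme 3-hydroxybutyrate dehydrogenase, was at 1.60 to 2.27 FPKM and at 4.86 to 7.75 FPKM (rise 1.24, adjusted p 0.0422). SOAT2, which esterifies cholesterol, was at 1.73 to 2.50 FPKM and at 4.10 to 6.01 FPKM (rise 0.94, adjusted p 0.043). Both lost the call without any 1 of the 6 libraries (adjusted p up to 0.154 and 0.163). PLEKHA3 was at 3.16 to 3.63 FPKM and at 5.72, 6.55 and 10.97 FPKM (rise 0.97, adjusted p 0.0329), and only the fit without sgFGFR3/4 replicate 1 kept its call (up to 0.118).

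Short motifs of transcription factors were counted in the 250 bases before the start sites of the genes tested (RefSeq promoter table, GRCh38.p14). The table matched 10302 of the 14716 genes by symbol, among them 110 of the 150 higher and 64 of the 88 lower genes. A gene was counted if any of its windows held the letters on either strand. The HNF4A type CAAAGTNCA was in 9 of the 110 higher genes (8.18%), in 1 of the 64 lower genes (1.56%) and in 112 of all 10302 (1.09%). The ETS type CCGGAAG was in 4 of the higher genes (3.64%), in 14 of the lower genes (21.9%) and in 1937 of all (18.8%). The FOXA type TGTTTAC was in 4.55%, 4.69% and 3.27%, the AP-1 type TGANTCA in 7.27%, 7.81% and 6.01%, and the TEAD type CATTCC in 15.5%, 15.6% and 13.4%. Overlaps between motifs were few, at most 12 of the 1630 TEAD matches. The windows of the higher genes had a median GC content of 60.0%, those of the lower genes 62.4% and all windows 64.4%, and the part of base composition in these shares was not tested. The matches are letters in a window; binding was not measured.

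Windows of 5 called genes with such a match are shown, to let the motifs be seen in place: BDH1 and AHSG for the HNF4A type among the higher genes, LARP6 and LDHA for the ETS type among the lower genes, and HABP2 for the AP-1 type, with their levels given in the text. Each is written 5′ to 3′ on the gene's strand, cut to the longest stretch before the start site that no GENCODE 29 exon touches, with matches of the 5 motifs in capitals.
AHSG (chr3:186612810-186612922, plus strand): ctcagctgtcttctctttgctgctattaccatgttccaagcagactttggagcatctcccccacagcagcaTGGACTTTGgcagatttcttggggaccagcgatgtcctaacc
BDH1 (chr3:197573344-197573593, minus strand): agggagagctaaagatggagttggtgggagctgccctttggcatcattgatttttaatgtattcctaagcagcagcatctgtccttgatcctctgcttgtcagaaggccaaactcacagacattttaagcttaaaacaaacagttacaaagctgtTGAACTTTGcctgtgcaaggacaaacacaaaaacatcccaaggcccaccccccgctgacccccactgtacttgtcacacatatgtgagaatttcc
HABP2 (chr10:113552803-113553025, plus strand): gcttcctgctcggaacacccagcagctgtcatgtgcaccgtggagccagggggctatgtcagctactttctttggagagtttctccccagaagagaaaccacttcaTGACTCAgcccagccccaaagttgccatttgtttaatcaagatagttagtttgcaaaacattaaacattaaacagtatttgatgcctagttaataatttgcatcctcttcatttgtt
LARP6 (chr15:70854160-70854407, minus strand): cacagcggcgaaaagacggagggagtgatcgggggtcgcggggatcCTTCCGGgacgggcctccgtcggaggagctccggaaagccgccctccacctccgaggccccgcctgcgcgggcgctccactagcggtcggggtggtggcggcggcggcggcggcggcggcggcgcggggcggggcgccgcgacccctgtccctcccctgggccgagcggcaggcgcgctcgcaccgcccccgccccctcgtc
LDHA (chr11:18396101-18396265, plus strand): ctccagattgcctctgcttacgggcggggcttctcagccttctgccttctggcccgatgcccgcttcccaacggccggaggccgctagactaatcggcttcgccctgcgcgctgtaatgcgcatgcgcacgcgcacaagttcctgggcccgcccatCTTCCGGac
The HNF4A type match lies 179 to 171 bases before the start in AHSG and 95 to 87 bases before it in BDH1, on the opposite strand in both. The ETS type match lies 204 to 198 bases before the start in LARP6 and 94 to 88 bases before it in LDHA, also on the opposite strand. The AP-1 type match in HABP2 lies 144 to 138 bases before the start.

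The largest falls included genes of signalling, adhesion and secreted regulators. SPRY4, a Sprouty inhibitor that ERK signalling itself induces, was at 18.3, 17.2 and 17.5 FPKM in sgFGFR4 and at 10.1, 9.91 and 11.1 FPKM in sgFGFR3/4, a fall of 0.72 ± 0.090 on the log2 scale (change -0.72, adjusted p 0.00214). UBASH3B, a tyrosine phosphatase, was at 8.88, 8.05 and 12.9 FPKM and at 4.23, 3.84 and 3.60 FPKM (change -1.14 ± 0.1601, adjusted p 0.00383). SOSTDC1, a secreted BMP and WNT antagonist, was at 15.8, 16.8 and 15.8 FPKM and at 9.14, 7.05 and 9.55 FPKM (change -0.85 ± 0.128, adjusted p 0.00577). LARP6, which binds collagen mRNA, was at 9.87, 8.61 and 11.4 FPKM and at 4.76, 4.13 and 5.81 FPKM (change -0.89 ± 0.138, adjusted p 0.00664). The sgFGFR3/4 libraries of these 4 genes did not overlap the sgFGFR4 libraries, and the ratios of the means ran from 0.39 to 0.59.

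RGCC, a cell cycle regulator that complement activation induces, was at 6.82, 7.63 and 7.02 FPKM and at 2.04, 3.83 and 1.63 FPKM (change -1.27 ± 0.212, adjusted p 0.0109), and lost its call without sgFGFR4 replicate 2 or sgFGFR3/4 replicate 1 (up to 0.0574). The activin antagonist FST was at 4.56 to 6.62 FPKM and at 1.90 to 2.78 FPKM (change -0.89, adjusted p 0.0196), and lost it without sgFGFR4 replicate 3 or sgFGFR3/4 replicates 1 or 3 (up to 0.0883). The remaining 6 falls kept their call in 1 or none of the fits with a library left out. MICU3 (-1.37), a mitochondrial calcium uptake regulator, kept it without sgFGFR4 replicate 3. The transporter gene SLC4A11 (-1.15) and the adhesion molecule L1CAM (-0.90) kept it without sgFGFR4 replicate 1. The amino acid transporter SLC6A14 (-0.91) and the cancer-testis gene XAGE2 (-0.85) kept it without sgFGFR3/4 replicate 1. ARHGAP11A (-0.76) kept it in none. Their adjusted p reached 0.153, 0.154, 0.109, 0.0999, 0.116 and 0.122 in these fits. The spread of SLC4A11 within sgFGFR4 was wide, at 26.6, 61.5 and 49.9 FPKM, against 18.5, 19.7 and 18.9 FPKM in sgFGFR3/4.

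**Figure D3:**
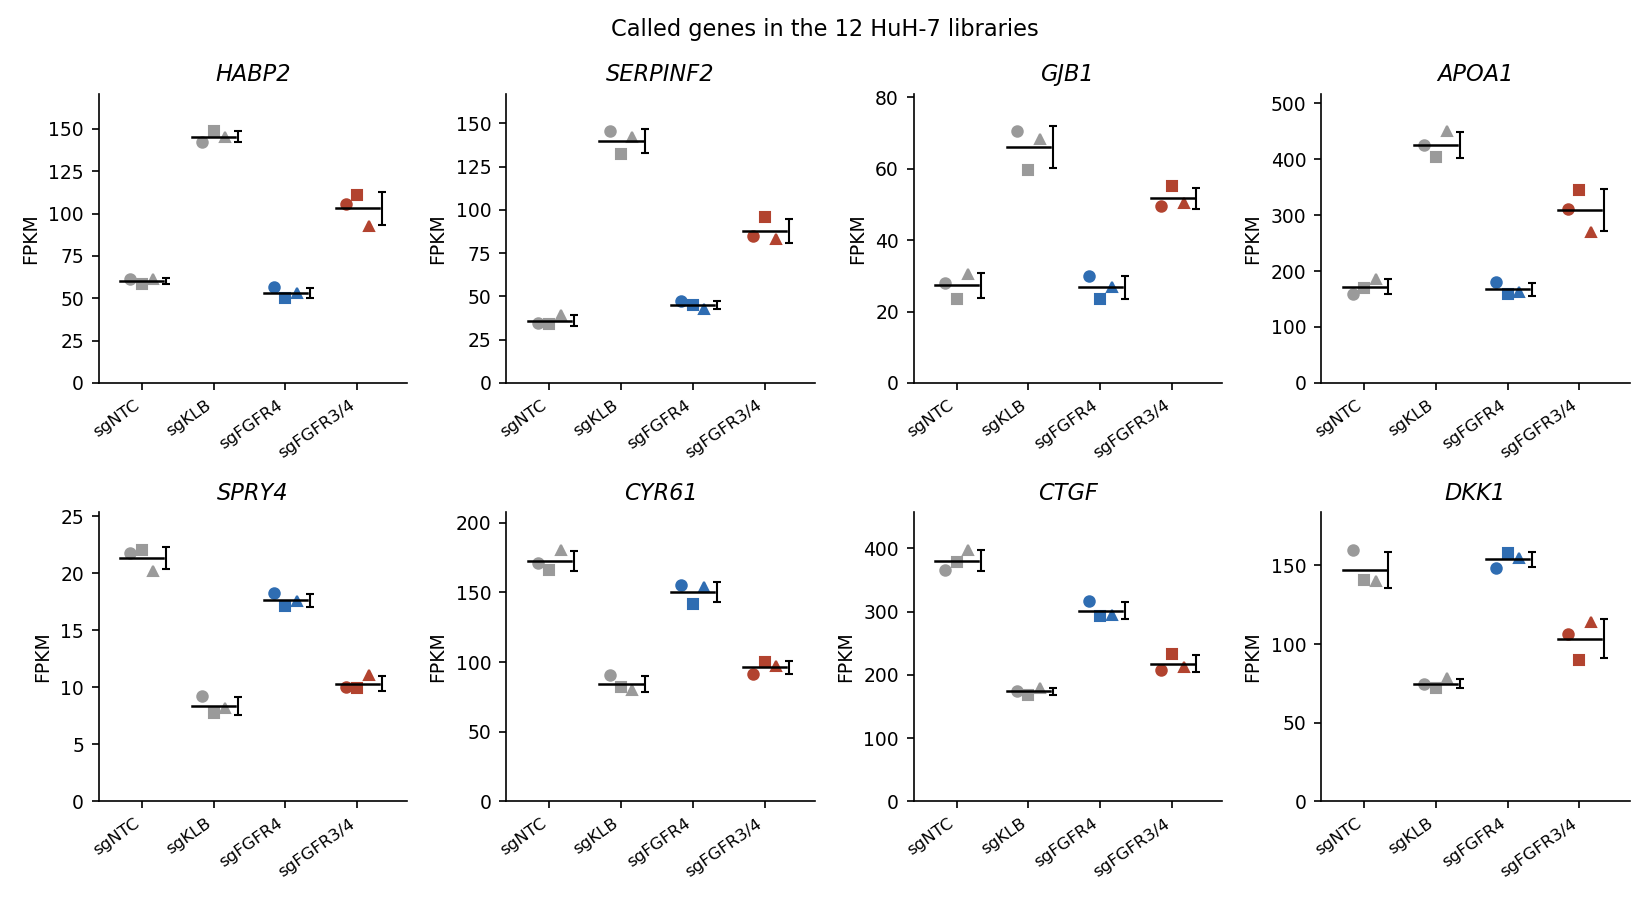
FPKM (vertical axes, each from 0) of 8 called genes in the 12 HuH-7 libraries by guide; circles, squares and triangles are replicates 1, 2 and 3, the line is the mean and the bar its SD. HABP2, SERPINF2, GJB1 and APOA1 lie higher in sgFGFR3/4 than in sgFGFR4, SPRY4, CYR61, CTGF and DKK1 lower, and no library overlaps.

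Among secreted plasma proteins 9 genes rose. Of 25 plasma carrier proteins 20 passed the filter on low values; 9 were called higher and 0 lower, and the median change of the 20 was 0.33. Over all genes tested 1.02% were called higher and the median was -0.01. Of the 20, 5 had a negative change. With 1 library left out the list gave 6 to 9 higher calls, and with replicate number in the fit 6. After rescaling to TPM, after quantile normalization or after removal of length and GC trends 1 member was called lower. Those settings called 10, 10 and 9 members higher. ITIH1, a heavy chain of inter-alpha-trypsin inhibitor, was at 0.86, 0.99 and 1.63 FPKM and at 4.70, 5.04 and 4.95 FPKM (rise 1.47 ± 0.165, adjusted p 0.0011). SERPINA1, the elastase inhibitor alpha-1-antitrypsin, was at 453, 416 and 447 FPKM and at 658, 707 and 611 FPKM (rise 0.58 ± 0.071, adjusted p 0.00186). AHSG, the carrier fetuin-A, was at 23.2, 22.1 and 21.1 FPKM and at 33.3, 38.4 and 31.7 FPKM (rise 0.61, adjusted p 0.00242). HPX, the heme carrier hemopexin, was at 99.8, 83.1 and 101 FPKM and at 149.8, 179 and 143 FPKM (rise 0.73, adjusted p 0.00358). All 4 were separated in every library pair. Albumin itself, ALB, was at 3121 to 3419 FPKM and at 3392 to 3597 FPKM, and the thyroid hormone carrier TTR was at 42.5 to 57.2 FPKM and at 31.9 to 40.9 FPKM; neither was called (adjusted p 0.509 and 0.134).

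Coagulation and fibrinolysis genes were called in both directions. Of 22 measured members of 27, 7 were called higher and 2 lower (median 0.25). With 1 library left out the list gave 2 to 5 higher and 1 to 2 lower calls. Besides SERPINF2, the fibrinogen chain gene FGA was at 539, 527 and 518 FPKM and at 685, 661 and 654 FPKM (rise 0.34 ± 0.046, adjusted p 0.00327). CPB2, a carboxypeptidase that slows fibrinolysis, was at 7.70, 9.74 and 9.63 FPKM and at 14.8, 15.2 and 14.6 FPKM (rise 0.67, adjusted p 0.0148). CPB2 lost its call without sgFGFR4 replicate 1 or sgFGFR3/4 replicates 1 or 2 (up to 0.0597), and the fibrinogen chain FGG (rise 0.41, adjusted p 0.0254) kept its call only without sgFGFR3/4 replicate 2 (up to 0.101). TFPI, the tissue factor pathway inhibitor, was at 36.3, 36.9 and 36.8 FPKM and at 22.7, 19.9 and 27.5 FPKM (change -0.64, adjusted p 0.0174), and only the fit without sgFGFR3/4 replicate 3 kept its call (up to 0.0749).

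Apolipoprotein genes had a median change of 0.345 over 19 measured members of 24, with 2 called higher and 0 lower. APOA1, the main protein of high-density lipoprotein, was at 181, 159.6 and 162 FPKM and at 311, 345 and 270.2 FPKM (rise 0.87 ± 0.091, adjusted p 0.000663). APOH, which binds phospholipids in plasma, was at 50.3, 44.5 and 39.4 FPKM and at 66.5, 73.1 and 66.2 FPKM (rise 0.61 ± 0.089, adjusted p 0.00449). In both genes the lowest sgFGFR3/4 library was above the highest sgFGFR4 library. After rescaling to TPM, after quantile normalization or after removal of length and GC trends 6 members of the list were called higher.

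Some genes of fatty acid use and bile acid synthesis rose. Of 25 measured fatty acid oxidation and PPARA target genes (29 listed) 5 were called higher and 0 lower (median 0.13). PLIN2, which coats lipid droplets, was at 133, 127 and 127 FPKM and at 181, 193 and 177 FPKM (rise 0.50 ± 0.058, adjusted p 0.0013). FABP1, the liver fatty acid binding protein, was at 385, 376 and 354 FPKM and at 487, 529 and 508 FPKM (rise 0.45 ± 0.053, adjusted p 0.00154). The transcription factor CREB3L3 rose by 0.42 (adjusted p 0.0135) but lost its call without sgFGFR4 replicates 2 or 3 or sgFGFR3/4 replicate 2 (up to 0.0729). Of 12 measured bile acid synthesis genes (17 listed) 2 were called higher and 0 lower (median 0.23). They were AKR1D1 and CYP27A1, the sterol 27-hydroxylase of the acidic pathway, which was at 17.9, 19.8 and 18.0 FPKM and at 29.7, 30.8 and 27.5 FPKM (rise 0.63 ± 0.079, adjusted p 0.00214). The conjugating enzyme BAAT was at a mean of 9.54 and 12.4 FPKM (change 0.34, adjusted p 0.1). Of 12 bile acid transport and FXR genes 0 were called (median 0.03), and NR0B2, the bile acid sensor's repressor target SHP, was at 22.5 and 22.4 FPKM. Cholesterol synthesis had 0 calls among 25 measured genes (median 0.03).

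The cytochrome P450, UGT, GST and SULT enzymes, which oxidise or conjugate drugs and steroids, gave 3 higher and 0 lower calls among 27 measured genes of 42 (median 0.13). They were UGT2B15, UGT2B4 and SULT2A1. UGT2B4 was at 32.1, 34.9 and 32.5 FPKM and at 50.2, 50.6 and 59.8 FPKM (rise 0.67 ± 0.102, adjusted p 0.00625). SULT2A1, which sulfates bile acids and steroids, was at 71.8, 69.5 and 64.1 FPKM and at 105, 97.8 and 91.9 FPKM (rise 0.51 ± 0.070, adjusted p 0.00327). Complement had 1 call among 25 measured genes (median 0.08): C6, a part of the membrane attack complex, at 1.85, 0.97 and 0.64 FPKM and at 3.01, 4.08 and 4.61 FPKM (rise 1.21, adjusted p 0.0135). C6 kept that call only without sgFGFR4 replicate 1 or sgFGFR3/4 replicate 1 (up to 0.0634).

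Of 26 measured hepatocyte transcription factors, which set the identity of these cells, 3 were called higher and 0 lower (median 0.06), where 1.02% of all genes tested were called higher. With 1 library left out the list gave 0 to 2 higher calls. ONECUT1, also called HNF6 (rise 0.51, adjusted p 0.0302), kept its call only without sgFGFR3/4 replicate 2 (up to 0.121). CREB3L3 is given above. HNF4A had means of 89.5 and 103 FPKM (change 0.20, 95% interval 0.06 to 0.35, adjusted p 0.19), and CEBPA 189 and 218 FPKM (0.20, 0.02 to 0.39).

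Among readouts of ERK signalling, 2 genes fell. Of 9 measured genes of the MAPK activity signature, a set of ERK-induced transcripts, 8 had a negative change and 2 were called lower, with a median of -0.39. The change was negative in 7722 of all 14716 genes tested, and 0.598% were called lower. Besides SPRY4, the ETS factor ETV4 was at 40.0, 35.7 and 41.6 FPKM and at 27.9, 26.7 and 23.8 FPKM (change -0.56 ± 0.101, adjusted p 0.0174). ETV4 kept its call only without sgFGFR4 replicate 2 or sgFGFR3/4 replicate 1 (up to 0.087). Not called were the ephrin receptor EPHA2 at 66.0 and 48.5 FPKM (change -0.43, adjusted p 0.054), the ERK phosphatase DUSP6 at 7.51 and 4.81 FPKM (-0.57, 0.22), SPRY2 at 5.66 and 4.13 FPKM (-0.38, 0.25) and the cyclin gene CCND1 at 111 and 105 FPKM (-0.09, 0.78). The exception in sign was DUSP4, at 31.5 and 33.9 FPKM (0.10, 95% interval -0.04 to 0.24).

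Of 15 other MAPK feedback and ETS genes 1 was called higher and 1 lower (median -0.15). DUSP5, a nuclear ERK phosphatase, was at 20.6, 19.9 and 21.2 FPKM and at 14.4, 14.2 and 13.3 FPKM (change -0.53 ± 0.088, adjusted p 0.0106), and lost its call without sgFGFR4 replicate 3 (0.0615). SPSB1 was higher by 0.41 (adjusted p 0.0248), a call that none of the 6 fits with a library left out gave again (up to 0.116). Of 18 immediate early genes 1 was called in each direction (median -0.18). IER3 was at 66.4, 56.1 and 59.0 FPKM and at 46.2, 44.6 and 41.7 FPKM (change -0.44 ± 0.072, adjusted p 0.00961). The phosphatase DUSP1 was higher by 0.25 (adjusted p 0.0377), again in none of those 6 fits (up to 0.149). The median of this list was -0.06 among genes with an FPKM of at least 5 and -0.09 without sgFGFR4 replicate 1 or without sgFGFR3/4 replicate 1.

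Secreted matrix-associated genes that YAP controls were among the falls. Of 17 measured YAP targets 4 were called lower and 0 higher (median -0.12), where 0.598% of all genes tested were called lower. CYR61 (CCN1), a secreted matrix protein, was at 155, 142 and 154 FPKM and at 91.2, 100.1 and 97.4 FPKM (change -0.64 ± 0.067, adjusted p 0.000663). CTGF (CCN2), its relative, was at 317, 294 and 295 FPKM and at 209, 233 and 212 FPKM (change -0.47 ± 0.059, adjusted p 0.00226). IGFBP3, which binds insulin-like growth factors, was at 338, 317 and 319 FPKM and at 239.7, 249 and 231 FPKM (change -0.44 ± 0.051, adjusted p 0.00151). In all 3 the highest sgFGFR3/4 library was below the lowest sgFGFR4 library. ANKRD1 (change -0.35, adjusted p 0.0492) kept its call only without sgFGFR3/4 replicate 3 (up to 0.174). AMOTL2 was at 52.3 and 41.2 FPKM (-0.34, adjusted p 0.061), and AJUBA at 139.6 and 148 FPKM (0.08, 0.71).

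Changes of cell cycle genes were small and nearly all negative. Of 38 DNA replication genes 37 had a negative change, 3 were called lower and 0 higher, and the median was -0.24. Over all 14716 genes tested 7722 had a negative change and 0.598% were called lower. CDC6, which loads the replicative helicase, had means of 36.1 and 26.8 FPKM (change -0.42 ± 0.088, adjusted p 0.0376), the sliding clamp PCNA 169 and 142 FPKM (-0.25, 0.0394) and the methylation maintenance factor UHRF1 26.8 and 21.5 FPKM (-0.31, 0.0487). All 36 mitosis genes had a negative change (median -0.22), but 1 was called: TPX2, a spindle assembly factor, at 127, 130.1 and 131 FPKM and at 109.8, 105 and 104 FPKM (change -0.28 ± 0.050, adjusted p 0.0151). Of 29 ribosome biogenesis and MYC target genes 26 had a negative change and 1 was called lower, the rRNA methyltransferase FBL (-0.26, adjusted p 0.0456; median -0.18). CDC6, PCNA, UHRF1 and FBL lost theirs without any 1 of the 6 libraries (up to 0.126, 0.151, 0.153 and 0.16), and TPX2 kept its call only without sgFGFR4 replicate 1 or sgFGFR3/4 replicate 1 (up to 0.082). Of 17 G1 cyclins and CDK inhibitors 0 were called (median -0.08), and of 33 cytosolic ribosomal protein genes 0 (median -0.07).

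**Figure D4:**
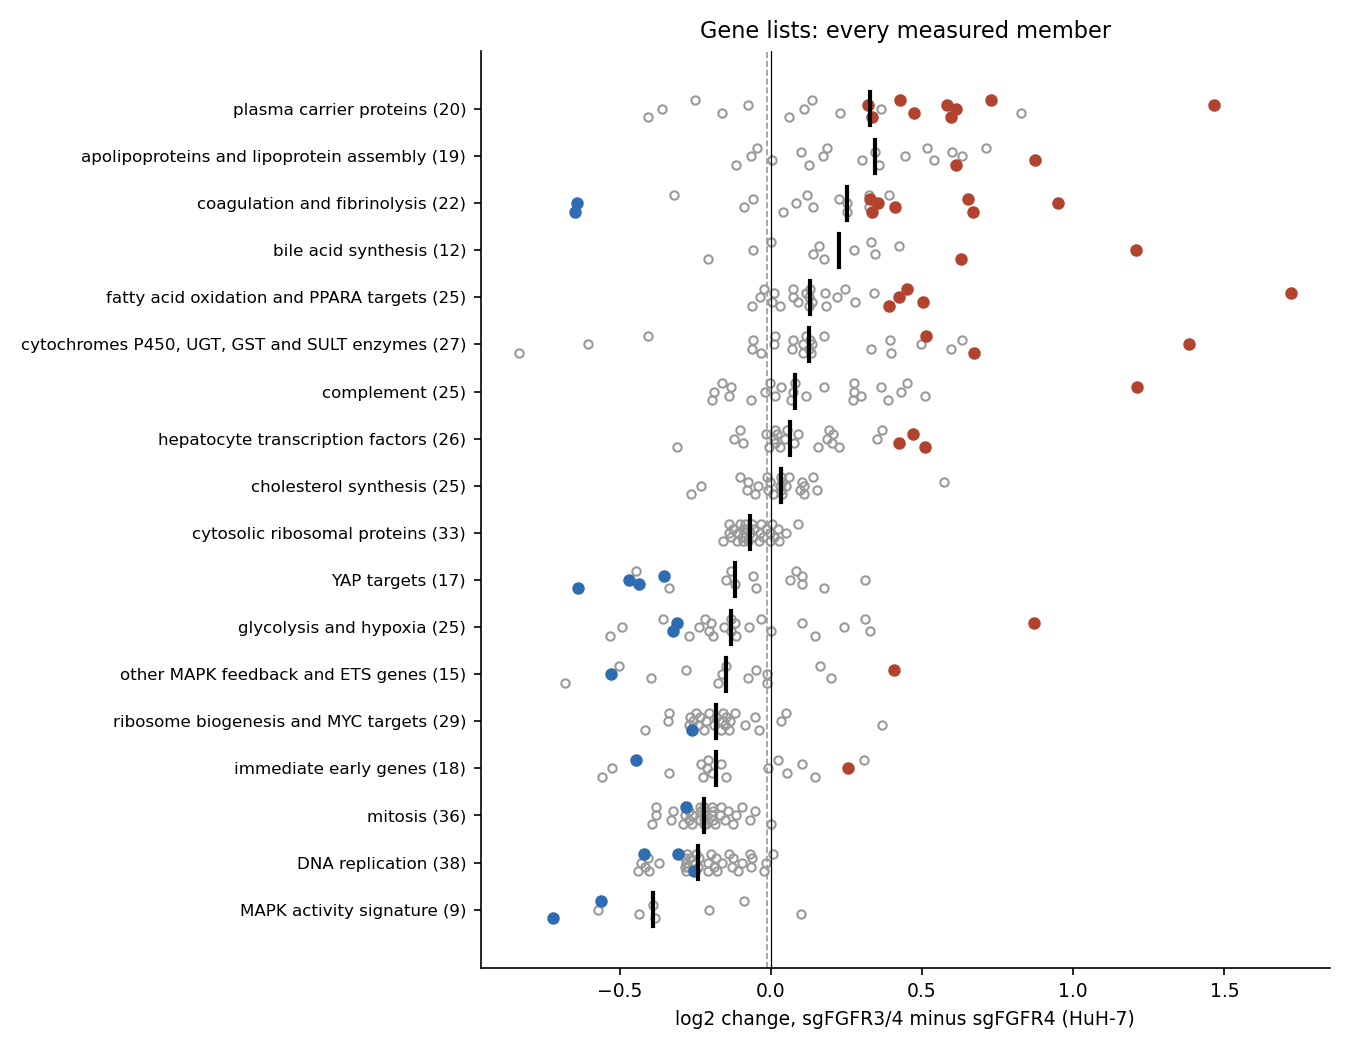
Log2 change, sgFGFR3/4 minus sgFGFR4 (horizontal axis), of every measured member of 18 gene lists, with the number measured in brackets; filled points are called, black bars are list medians and the dashed line is the median of all genes tested. Plasma carriers and apolipoproteins lie to the right with medians of 0.33 and 0.345, and the MAPK signature lies to the left with a median of -0.39.

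Other lists held a few called members each. Among 21 measured oncofetal and liver progenitor genes 2 were called higher and 4 lower (median -0.05). The secreted phosphoprotein SPP1 was at 74.5, 81.7 and 76.4 FPKM and at 48.5, 49.2 and 56.1 FPKM (change -0.59 ± 0.079, adjusted p 0.00311). Its mean in sgNTC was 56.9 FPKM. The imprinted RNA H19 (-0.55, adjusted p 0.0259) kept its call only without sgFGFR4 replicate 2 (up to 0.116), and the heparan sulfate proteoglycan GPC3 (rise 0.34, adjusted p 0.0487) only without sgFGFR3/4 replicate 3 (up to 0.162). The trypsin inhibitor gene SPINK1 (rise 0.45, adjusted p 0.0375; kept in 1 of the 6 fits) and the progenitor factor SOX9 (-0.29, 0.048; kept in none) completed the list with XAGE2, given above. Without sgFGFR3/4 replicate 2 the median of this list was 0.08. Among 25 glycolysis and hypoxia genes 1 was called higher and 2 lower (median -0.13). NDRG1, a stress-responsive differentiation gene, was at 81.7, 76.7 and 77.2 FPKM and at 129, 156 and 149 FPKM (rise 0.87 ± 0.090, adjusted p 0.000663), while the lactate dehydrogenase LDHA was at 942, 948 and 941 FPKM and at 778, 766 and 739.5 FPKM (change -0.31 ± 0.044, adjusted p 0.00431). HK2 fell by 0.32 (adjusted p 0.0394), a call that no fit with a library left out kept (up to 0.16).

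Among 11 WNT feedback targets, the secreted antagonist DKK1 was at 148, 158 and 155 FPKM and at 106, 89.8 and 114 FPKM (change -0.58 ± 0.085, adjusted p 0.00506). The glutamine synthetase GLUL, the other call of that list, rose by 0.33 (adjusted p 0.0218) and kept its call only without sgFGFR4 replicate 1 or sgFGFR3/4 replicate 3 (up to 0.103). Among 19 epithelial to mesenchymal transition genes TGFBI rose by 0.47 (adjusted p 0.00214), the cadherin CDH2 by 0.46 (adjusted p 0.00939) and VIM by 0.28 (adjusted p 0.0457; lost without any 1 library, up to 0.181). In 18 p53 targets BTG2 was at 20.3, 18.1 and 19.2 FPKM and at 30.5, 26.6 and 28.5 FPKM (rise 0.55, adjusted p 0.00325). In 24 interferon response genes IFITM2 was at 184, 159 and 174 FPKM and at 114, 108 and 113 FPKM (change -0.62, adjusted p 0.00664), although 20 of the list's members had a positive change. In 20 urea cycle and amino acid catabolism genes GLUD1 was at 410.3, 393 and 377 FPKM and at 566, 567 and 521 FPKM (rise 0.49, adjusted p 0.00391). The unfolded protein response (20 genes), the ATF4 response (22) and the 13 mitochondrially encoded genes had 0 calls.

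The called genes were then read in a comparison that shares no library with this one, HuH-7 sgKLB against sgNTC, where 17.6% of genes are called (8.98% higher, 8.62% lower). Both comparisons came from the same fit and share its estimate of the spread of each gene. A gene with a small spread is called more easily in both, so the shares called are not independent. Of the 150 genes higher in sgFGFR3/4 than in sgFGFR4, 145 were positive there and 136 were called higher, which is 90.7% of the 150 and 10.3% of that comparison's 1322 higher genes. None was called lower. Of the 88 lower genes 83 were negative and 72 were called lower, which is 81.8% of the 88 and 5.67% of the 1269 lower genes, and 2 were called higher. Over all genes 52.9% were positive and 47.0% negative in that comparison. The median change there was 0.83 for the higher and -0.67 for the lower genes, against median sizes of 0.58 and 0.50 in sgFGFR3/4. KLB encodes the FGF19 co-receptor, and no test of likeness between both comparisons was made.

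By mean level across the 4 HuH-7 groups, SERPINF2 was at 35.9 ± 3.07 FPKM (SD, n = 3) in sgNTC, 44.98 ± 2.21 in sgFGFR4, 87.9 ± 7.03 in sgFGFR3/4 and 139.8 ± 6.96 in sgKLB. HABP2 was at 60.3 ± 1.76 FPKM in sgNTC, 53.3 ± 3.05 in sgFGFR4, 103 ± 9.63 in sgFGFR3/4 and 145 ± 3.04 in sgKLB. SPRY4 ran the other way, at 21.4, 17.7, 10.3 and 8.37 FPKM in sgNTC, sgFGFR4, sgFGFR3/4 and sgKLB. The comparison of sgFGFR4 with sgNTC shares the sgFGFR4 libraries, so its values are only set beside these. There the change was -0.18 for HABP2, -0.02 for GJB1, -0.05 for MPP1, -0.26 for SPRY4, 0.63 for UGT2B15 and 0.32 for SERPINF2. For ARHGAP11A it was 0.66, opposite in sign to its fall from sgFGFR4 to sgFGFR3/4. Among other falls it was positive for SPP1 (0.44), TFPI (0.48) and MICU3 (0.93), and negative for CTGF (-0.34) and CYR61 (-0.20). TFPI had means of 26.1 FPKM in sgNTC, 36.65 in sgFGFR4 and 23.4 in sgFGFR3/4. A fall against sgFGFR4 is thus not always a fall of like size against sgNTC. Both groups also differed from sgNTC in 25 long coiled-coil, chromatin and DNA repair genes. Their median change against sgNTC was 0.886 in sgFGFR4, 0.805 in sgFGFR3/4 and -0.108 in sgKLB. Over all genes tested these medians were 0.064, 0.075 and 0.020. From sgFGFR4 to sgFGFR3/4 the list's median was -0.084. The part of this difference in the values set against sgNTC was not tested.

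In JHH-7 the same pair of guides gave few calls. FGFR3 was called lower (change -1.04 ± 0.066, adjusted p 3.43e-06), the only lower call (0.00667%), and AP003119.2, named here after its values were seen, was called higher (1.75, adjusted p 0.00245; 0.00667%), 2 of 14987 genes in all (0.0133%); 766 genes had an unadjusted p under 0.05. The difference of the FGFR3 change between the lines did not pass (JHH-7 minus HuH-7 0.21, adjusted p 0.515). Of the 143 HuH-7 higher genes tested in JHH-7, 109 were positive there (76.2%, against 46.4% of all genes), and of 79 lower genes 56 were negative (70.9%, against 53.6%). Their median changes in JHH-7 were 0.08 and -0.07.

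The difference between the lines was tested for each gene as an interaction in a fit over both lines. Of 16399 genes 28 passed (0.171%), of which 20 had a lower change in JHH-7 than in HuH-7 and 8 a higher one, and 24 of the 28 were called in HuH-7. HABP2 was at 65.8 to 81.8 FPKM in JHH-7 sgFGFR4 and at 70.1 to 86.6 FPKM in sgFGFR3/4, a change of 0.01 against 0.94 in HuH-7 (difference -0.93 ± 0.118, adjusted p 0.000727). MPP1 changed by -0.13 in JHH-7 (difference -1.13 ± 0.162, adjusted p 0.00248). UGT2B15 changed by 0.16 (difference -1.22, adjusted p 0.0167) and FAM151A by -0.02 (difference -0.98, adjusted p 0.0337). HABP2 and MPP1 held with any 1 of the 12 libraries left out. UGT2B15 held in 6 and FAM151A in 2 of those 12 fits (adjusted p up to 0.0702 and 0.106).

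In the other direction, EFEMP1, an extracellular matrix glycoprotein, was at 168, 177 and 177 FPKM and at 109, 111 and 121 FPKM in HuH-7 (change -0.61, adjusted p 0.000323), and at 3.28 to 4.14 and 3.81 to 4.75 FPKM in JHH-7 (difference 0.71 ± 0.126, adjusted p 0.0167). That difference was lost without HuH-7 sgFGFR4 replicate 2 or JHH-7 sgFGFR3/4 replicate 3 (up to 0.0651). RGS3, which turns off G protein signalling, fell by 0.47 in HuH-7 (adjusted p 0.00358; difference 0.68, adjusted p 0.0295). SLC25A17 (difference 0.57, adjusted p 0.0424) and CNOT7 (0.92, 0.0424) completed the 4 largest of this direction among genes whose log2 values averaged 2 or more in both lines. RGS3 and SLC25A17 held in 3 and CNOT7 in 2 of the 12 fits (up to 0.0876, 0.123 and 0.125). In HuH-7 SLC25A17 was called lower (-0.46, adjusted p 0.033; lost without any 1 of the 6 libraries, up to 0.14), while CNOT7 was not called (adjusted p 0.146).

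**Figure D5:**
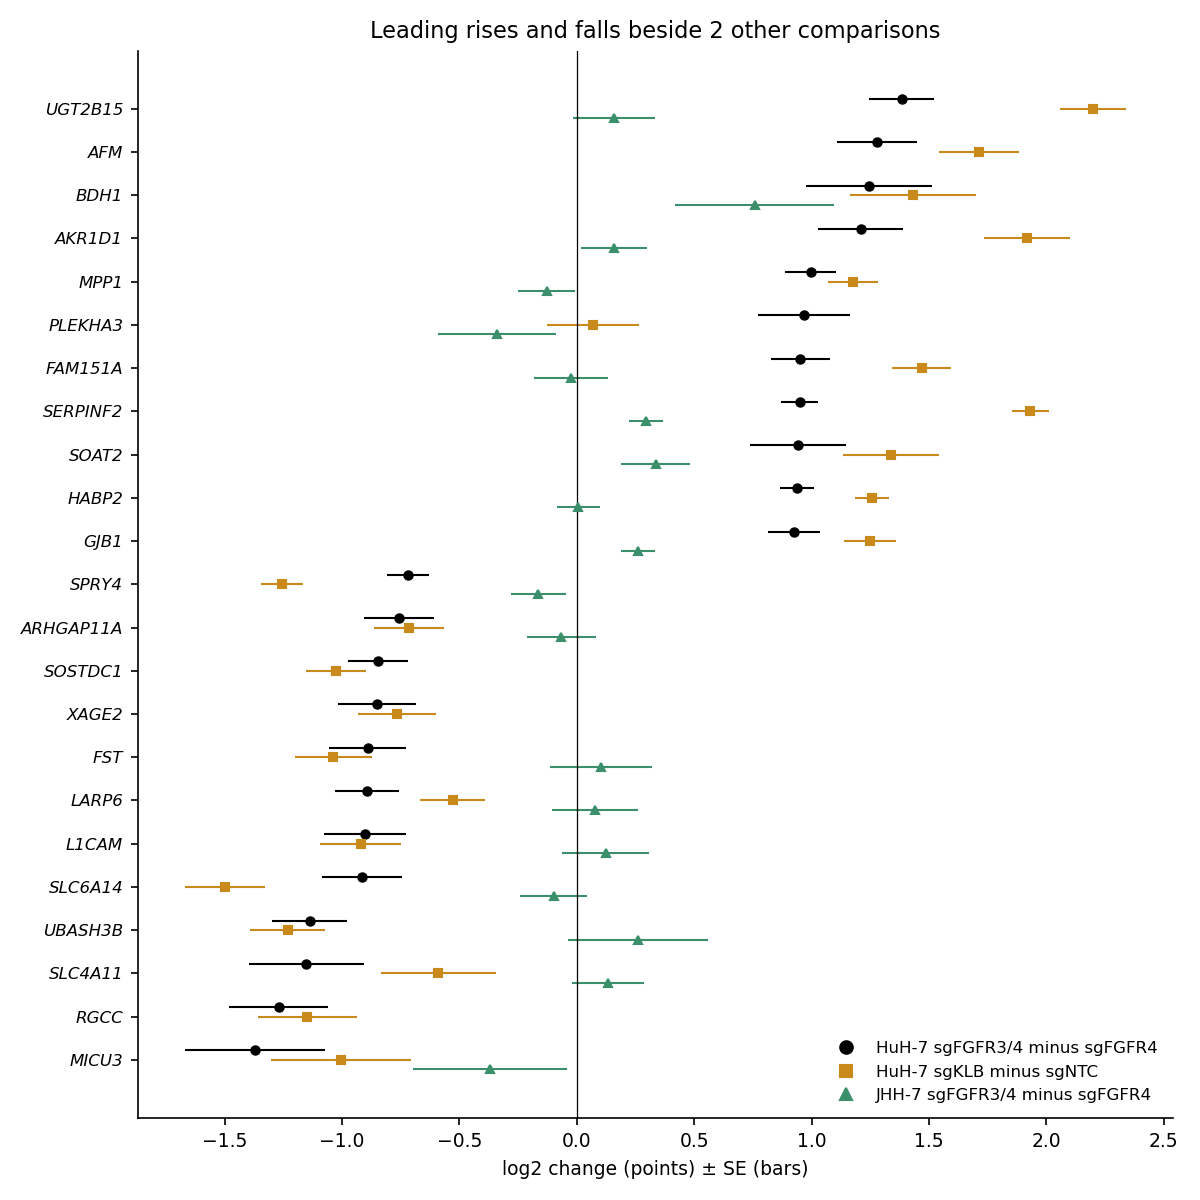
Log2 change with its standard error (horizontal axis) of 23 leading genes in HuH-7 sgFGFR3/4 against sgFGFR4 (circles), HuH-7 sgKLB against sgNTC (squares) and JHH-7 sgFGFR3/4 against sgFGFR4 (triangles, left out where the gene was too low to test). HABP2 and MPP1 have squares right of 1 and triangles at 0.01 and -0.13, while the triangle of BDH1 lies at 0.76.

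Around the guide's target, of 15 tested genes within 500 kb of FGFR3, 0 were called, and their changes ran from -0.28 (TACC3) to 0.36 (MXD4) with a median of -0.07.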

How the data were processed

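Per the submitters' processing notes, expression was quantified with RSEM against GRCh38; the deposited tables hold FPKM, a unit read from the values, which are not whole and sum below 1 M. Column names matched every column to a sample (0 unmapped). Depth was estimated from the steps between low FPKM, so no counting interval is given.

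A gene was kept where at least 3 libraries of its line reached 1 FPKM. The log2 of FPKM + 1 was fitted over the 12 HuH-7, 15 JHH-7 or all 27 libraries with limma 3.58.1 (R 4.3.3, statmod 1.5.0; trend and robust), code that was tested on simulated data, and two-sided p-values of each contrast got Benjamini-Hochberg adjustment across its genes, with a threshold of 0.05. Promoter windows came from a RefSeq table (GRCh38.p14). Other pseudocounts, filters, scalings and designs, and leaving out each library, were tried.

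The members, lists and tests were chosen with earlier results of these data known. The naming rule takes FGFR1 to FGFR4, KLB and FGF19; the 12 largest called rises and falls whose libraries do not overlap and whose log2 values average 2 or more, without pseudogenes, clone names and guide targets; up to 4 called genes per list and direction, by p; and the 4 largest line differences each way among genes whose log2 values average 2 or more in both lines. Some genes that the rule or the lists hold are not reported here.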

Additional observations from a re-analysis of the deposited data

Results flagged for a closer look

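The change from sgFGFR4 to sgFGFR3/4 differed between the lines in the following genes, by a test of the interaction in limma over both lines. Values are the log2 change in JHH-7 minus that in HuH-7, with the adjusted p and the number of the 12 fits with 1 library left out that kept the call. No explanation was tested.

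The difference held in all 12 fits for 3 genes: HABP2 (-0.9305, adjusted p 0.000727), MPP1 (-1.125, 0.00248) and SERPINF2 (-0.6555, 0.00664). The call held for EFEMP1 (0.7148, 0.0167) in 10 fits, for PLIN2 (-0.4805, 0.0167) in 7, for UGT2B15 (-1.224, 0.0167) in 6 and for UGT2B4 (-0.7203, 0.0285) in 5. For CPB2 (-0.9157, 0.0285) and HPX (-0.7348, 0.0322) it held in 4 fits. For GJB1 (-0.6668, 0.0317), RGS3 (0.6847, 0.0295) and SLC25A17 (0.567, 0.0424) it held in 3. For AFM (-1.39, 0.0317), AKR1D1 (-1.051, 0.0424), FAM151A (-0.9767, 0.0337) and CNOT7 (0.9156, 0.0424) it held in 2. Over these genes the adjusted p with a library left out reached at most 0.125, in CNOT7. AFM was at 0.12 to 0.61 FPKM in the 6 JHH-7 libraries, below the filter of that line.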

How the results depend on the processing

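Against 238 called genes in HuH-7, the count was 134 with no filter on low values, 399 after removal of length and GC trends (226 of the 238 among them), 68 with only the 2 groups fitted, and 100 to 148 with 1 library left out (100 without sgFGFR4 replicate 3, 106 without sgFGFR4 replicate 2, 117 without sgFGFR3/4 replicate 1, 132 without sgFGFR4 replicate 1, 133 and 148 without sgFGFR3/4 replicates 2 and 3). It stayed between 188 and 299 with pseudocounts of 0.1 or 5, a filter of 5 FPKM, TPM, quantile normalization, or no trend and robust options. With the replicate block it was 119, but same-numbered libraries deviated at correlations of -0.0761, -0.15 and -0.0776 from their group means, so the numbers were not taken as pairs. FGFR3 was called in every setting (-1.31 to -1.18). In JHH-7 2 to 4 genes were called with 1 library left out. The 28 line differences numbered 9 with the replicate block and 10 (without HuH-7 sgFGFR4 replicate 2) to 35 (without JHH-7 sgFGFR3/4 replicate 1) with 1 library left out, and 34 or 35 with TPM or quantile normalization. Under the alternatives 1015 values of single genes kept direction and side of the threshold, 376 were no longer past it and 0 changed sign. For the called genes leaving out a library could not reverse the sign, as their groups did not overlap. The cause of these changes was not tested. Depth is only estimated, so what it limits at low FPKM is not known.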

Other observations

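The genes of this section were chosen after their values were seen. The alcohol dehydrogenase genes ADH1A, ADH1B and ADH1C, which oxidise ethanol in liver, lie side by side on chromosome 4 and were all called higher in HuH-7 sgFGFR3/4. ADH1C was at 1.24, 0.79 and 0.66 FPKM in sgFGFR4 and at 7.03, 6.13 and 4.98 FPKM in sgFGFR3/4 (rise 1.895 ± 0.168, adjusted p 0.00027). ADH1B was at 0.80, 0.37 and 0.36 FPKM and at 4.34, 5.92 and 3.60 FPKM (rise 1.89 ± 0.184, adjusted p 0.000461). ADH1A was at 0.14 FPKM or less and at 0.86, 1.63 and 1.47 FPKM (rise 1.09, adjusted p 0.0135), a call lost without sgFGFR4 replicate 2 or without sgFGFR3/4 replicates 2 or 3 (up to 0.0616). These genes are close copies and the annotated spans of ADH1B and ADH1C overlap, so the division of fragments between them is uncertain. In JHH-7 the change was -0.01 for ADH1C and 0.05 for ADH1B, and both differences between the lines passed (-1.906, adjusted p 0.00856, and -1.835, adjusted p 0.00344) and held with any 1 of the 12 libraries left out. Both genes were low in JHH-7, with ADH1C at 0.5 to 1.49 FPKM and ADH1B at 0.18 to 0.72 FPKM over both groups.

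On chromosome 14 the serine protease inhibitor genes SERPINA1, SERPINA4, SERPINA5 and SERPINA6 were all called higher. SERPINA4, the kallikrein inhibitor kallistatin, was at 3.91, 4.46 and 4.41 FPKM and at 7.96, 8.52 and 7.01 FPKM (rise 0.75, adjusted p 0.0126), and kept its call in 3 of the 6 fits with a library left out (up to 0.0575). SERPINA5 (rise 0.33, adjusted p 0.0394) kept it in 1 of those 6 fits (up to 0.164).

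The line difference was also past the threshold, in all 12 fits with a library left out, for MUC13, a membrane mucin (-0.82, adjusted p 0.00238), and the long noncoding RNA UCA1 (-1.18, adjusted p 0.00277). 3 genes were called higher while listed at 0 in the other 9 HuH-7 libraries: the pseudogene DNAJC19P5 at 2.18, 7.37 and 9.13 FPKM, AL133523.1 at 1.69, 1.90 and 2.35 FPKM, and AC084125.4 at 7.53, 6.81 and 4.19 FPKM. JHH-7 libraries reached 2.68, 5.57 and 3.69 FPKM for these genes. In HuH-7 they passed the filter on low values only through the sgFGFR3/4 libraries in which they are high. Their calls are therefore no support for a difference and are given as values only.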
